A study of Mus musculus with 18 samples.

Results

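The collagen genes of mouse kidney epithelial cells in culture were examined, meaning every gene whose current mouse symbol is Col, a number, the letter a and a number. The rule uses names only, and it found 44 genes among the 36528 genes of the count tables. A test needed over 10 reads in 4 samples or more, which 26 of the 44 had, among 15521 genes that had it. The study asked how TWEAK, a TNF family cytokine, changes gene expression in these cells and how far the change needs the kinase NIK. The cells were commercial C57BL/6 mouse renal tubulointerstitial epithelial cells, named mRPTEC in the labels and here RPTEC, with no genetic alteration stated. RNA was sequenced from 18 samples in 6 groups of 3. The vehicle (DMSO) groups were kept for 6 h or 24 h without TWEAK. The TWEAK groups received recombinant mouse TWEAK at 100 ng/mL for 6 h or 24 h, and the NIK SMI1 groups received the same TWEAK together with the NIK inhibitor NIK SMI1 at 3 µM. No group received NIK SMI1 alone, so an action of the inhibitor that does not depend on TWEAK cannot be told apart. The labels carry no replicate numbers or animal of origin, and numbers 1 to 3 only name the samples of a group. P-values then measure the spread between these samples, which may be technical.

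Collagens are extracellular proteins built from chains wound into a triple helix, and their genes fall into classes by the structure the chains form. Fibrillar collagens form the banded fibres of connective tissue, collagen IV forms the network of basement membranes under epithelia, and collagen VII anchors that membrane to the tissue below. Fibril-associated collagens decorate fibres, beaded filament collagens link cells to the matrix, short-chain collagens form hexagonal sheets, and the multiplexins XV and XVIII lie in basement membrane zones. In kidney, the chains encoded by Col4a3, Col4a4 and Col4a5 join in the mature membrane of the glomerulus and of some tubules, and Col4a1 and Col4a2 make the network found in almost every tissue. TWEAK binds the receptor Fn14 and activates the canonical and the non-canonical branch of NF-κB signalling, and NIK is the kinase that starts the non-canonical branch.

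Promoter sequences were searched for letter matches to the NF-κB consensus, because TWEAK activates NF-κB signalling, and to the GC box and TATA box. In the RefSeq table for GRCm38.p6, 35 of the 44 genes had a promoter, 38 promoters in all, each from 250 bases before to 50 bases after an annotated start. Col2a1 and Col4a3 were among the genes without one. The promoters of 4 genes are shown, each 5′ to 3′ on the strand of its gene. Col5a3 had the strongest TWEAK response among collagens, Col27a1 rose at both times, Col4a4 fell at both times, and Col4a1 was not called for TWEAK at either time. Capitals mark matches, on either strand, to the GC box GGGCGG, to the NF-κB consensus and to the TATA box TATAAA, and matches of different motifs were counted independently.
Col5a3, chr9:20815018-20815317, minus strand: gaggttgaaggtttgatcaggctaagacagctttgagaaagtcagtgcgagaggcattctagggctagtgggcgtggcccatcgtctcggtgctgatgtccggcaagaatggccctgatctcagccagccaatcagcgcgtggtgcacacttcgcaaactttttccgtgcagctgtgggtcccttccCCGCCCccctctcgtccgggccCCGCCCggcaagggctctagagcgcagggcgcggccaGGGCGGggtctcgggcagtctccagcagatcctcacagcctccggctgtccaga
Col27a1, chr4:63215162-63215461, plus strand: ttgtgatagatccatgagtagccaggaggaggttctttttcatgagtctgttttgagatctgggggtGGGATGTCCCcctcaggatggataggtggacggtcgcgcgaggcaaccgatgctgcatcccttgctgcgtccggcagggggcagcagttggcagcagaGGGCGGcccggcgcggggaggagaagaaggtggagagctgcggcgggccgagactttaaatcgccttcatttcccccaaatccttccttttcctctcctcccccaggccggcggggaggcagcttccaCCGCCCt
Col4a4, chr1:82586800-82587099, minus strand: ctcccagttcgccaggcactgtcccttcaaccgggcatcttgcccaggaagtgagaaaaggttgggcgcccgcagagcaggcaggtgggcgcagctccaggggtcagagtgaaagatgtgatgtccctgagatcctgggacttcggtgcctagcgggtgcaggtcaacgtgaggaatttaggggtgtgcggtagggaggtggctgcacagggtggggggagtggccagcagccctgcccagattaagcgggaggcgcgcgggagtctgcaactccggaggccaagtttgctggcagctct
Col4a1, chr8:11312777-11313076, minus strand: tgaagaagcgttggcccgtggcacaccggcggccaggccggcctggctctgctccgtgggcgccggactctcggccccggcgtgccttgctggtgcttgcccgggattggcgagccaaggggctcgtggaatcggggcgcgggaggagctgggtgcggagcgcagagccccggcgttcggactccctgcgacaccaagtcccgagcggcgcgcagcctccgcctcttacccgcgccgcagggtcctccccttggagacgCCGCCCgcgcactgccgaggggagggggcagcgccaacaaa
The NF-κB consensus matched 4 of the 38 collagen promoters, those of Col27a1, Col6a4, Col9a1 and Col9a2, against 4.51% of all 32851 promoters of the same length. Col6a4, Col9a1 and Col9a2 were not tested for expression, with 3, 1 and 38 reads over all samples together. In Col27a1 the match lay on the opposite strand. Read on the strand of the gene it was GGGATGTCCC, with its first base 183 bases before the start. Col5a3, Col4a4 and Col4a1 held no match in this window. The GC box was in 23 of 38 collagen promoters against 35.7% of all promoters, with 3 matches in Col5a3, 2 in Col27a1, 1 in Col4a1 and 0 in Col4a4. The TATA box was in 5 of 38 against 13.6%. The windows of Col4a1 and Col4a2, whose starts lie head to head, overlap. These are letter matches, and binding was not measured.

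Between 18040966 and 51956444 reads were counted per sample (median 35374254), so that 3 reads, the smallest count taken as a level, corresponded to 0.0577 to 0.166 CPM, the count divided by the counted reads of the sample and scaled to 1e+06 reads. The 7 renal epithelium markers, Epcam, Cdh1, Cdh16, Pax8, Krt8, Krt18 and Krt19, summed to 7997 to 10640 CPM. Of the proximal tubule markers, Slc34a1 and Slc22a6 had at most 1 read in a sample, Hnf4a at most 2 and Aqp1 at most 18, while Slc5a2 stood at 5.83 to 8.52 CPM and Cubn at 1.93 to 4.64. Of the 8 fibroblast and mesenchyme markers, which summed to 8.31 to 12.7 CPM, Dcn, Lum and Thy1 had at most 4, 2 and 2 reads, while Acta2 had 76 to 287, Postn 45 to 274 and Twist1 12 to 51. Reads of pancreatic islet genes, foreign to kidney, set libraries apart. The 8 islet genes summed to 14.3 to 29.0 CPM in both vehicle groups and in the other groups at 6 h, to 13.2, 0.214 and 4.18 CPM in the TWEAK samples at 24 h, and to 0.0451 to 0.0870 CPM with NIK SMI1 at 24 h. For the collagens called at 24 h, TWEAK against vehicle was therefore also fitted with TWEAK sample 1 alone, which is nearest to the vehicle samples in islet reads, and NIK SMI1 against TWEAK with TWEAK sample 2 alone, which is nearest to the NIK SMI1 samples. The epithelial sum was lower with TWEAK at both times, at 9424 to 9780 CPM against 10170 to 10640 with vehicle at 6 h and 7997 to 8108 against 9080 to 9236 at 24 h. The markers did not move alike: mean Epcam at 24 h was 649 CPM with vehicle, 1214 with TWEAK and 884 with NIK SMI1, and mean Krt18 was 4197, 3498 and 4093. The part of these shifts in the collagen results was not tested. In bulk RNA, fewer cells of a type and less RNA per cell cannot be told apart.

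Collagen transcripts made up 0.178% to 0.203% of the counted reads of a sample, with a mean of 0.191%. Compared per length, in the authors' RPKM (read counts divided by exonic length and by the reads of the sample), Col18a1 was the highest collagen at a mean of 94.3 over the 18 samples. Next were Col4a1 at 39.6, Col4a2 at 29.6 and Col7a1 at 23 RPKM. Col4a3, Col4a5 and Col4a4 followed at 7.96, 6.22 and 5.57 RPKM, and Col27a1 was the highest fibrillar gene at 2.45. The classes of the epithelial basement membrane zone thus led: of the summed collagen RPKM, the multiplexins held 43.0%, the basement membrane class 40.6% and collagen VII 10.4%. The 11 fibrillar genes held 3.21%. Col1a1, the main chain of collagen I, stood at 2.24 RPKM, while Col1a2, its partner, stood at 0.0749, and the ratio of their RPKM ran from 16.7 to 71.7 over samples. Col3a1, abundant in fibroblasts, had 53 reads in all 18 samples together.

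**Figure D1:**
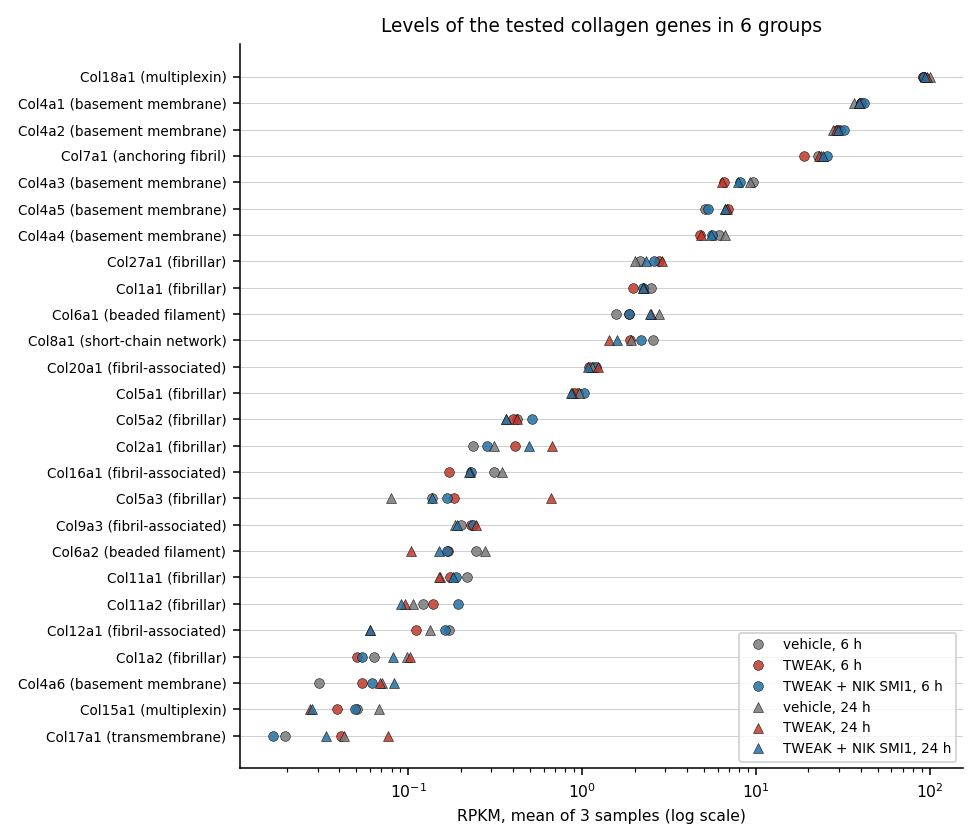
Mean RPKM of 3 samples on a log axis for each of the 26 tested collagen genes, with colour for treatment and circles for 6 h, triangles for 24 h. Levels span from Col17a1 at a mean of 0.0382 RPKM to Col18a1 at 94.3, and the group means of Col5a3 lie farther apart than those of the other genes.

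The other 18 members were not tested: Col3a1, Col6a3, Col6a4, Col6a5, Col6a6, Col8a2, Col9a1, Col9a2, Col10a1, Col13a1, Col14a1, Col19a1, Col22a1, Col23a1, Col24a1, Col25a1, Col26a1 and Col28a1. Each had at least 1 and at most 129 reads over the 18 samples. In the edgeR fit with no filter on low counts, 0 of these 18 were called in any of the 9 comparisons. For TWEAK at 24 h, 1 had an unadjusted p below 0.05. Over all 26210 genes of that fit, 10.7% were higher and 12.1% lower with TWEAK at 24 h. With so few reads a call was hardly possible for most of the 18, so the count does not show that they were unchanged. By class, 9 of 11 fibrillar, 6 of 6 basement membrane, 2 of 6 beaded filament, 1 of 1 anchoring fibril, 1 of 3 short-chain, 4 of 9 fibril-associated, 1 of 4 transmembrane and 2 of 2 multiplexin genes passed the filter. Col26a1 and Col28a1, of no such class, did not. Some members lie next to each other: the annotated spans of Col4a1 and Col4a2, and of Col4a3 and Col4a4, overlap, and reads of that stretch cannot be assigned by strand because the library kit does not mark it. Col6a1 and Col6a2, Col4a5 and Col4a6, and Col3a1 and Col5a2 are neighbours without overlap.

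With TWEAK, some collagens rose and more fell. A gene was called at an adjusted p-value below 0.05 in edgeR's quasi-likelihood test, adjusted over all tested genes. After 6 h of TWEAK, 3 of 26 collagens were higher than with vehicle (Col2a1, Col4a5 and Col27a1), against 11.7% of all tested genes, and 6 were lower (Col1a1, Col4a3, Col4a4, Col8a1, Col12a1 and Col16a1), against 12.0%. After 24 h, 3 were higher (Col2a1, Col5a3 and Col27a1) against 18.3%, and 7 were lower (Col4a3, Col4a4, Col6a2, Col8a1, Col12a1, Col15a1 and Col16a1) against 20.7%. The share called higher was 11.5% of the members at both times, and the shares called lower were 23.1% and 26.9%. The members' median log2 fold change was -0.06 at 6 h and -0.03 at 24 h, with -0.0034 and -0.0055 over all tested genes. Above the 2-fold cut-off of the study, 0 collagens were higher at 6 h, against 1.75% of all genes. At 24 h, Col2a1 and Col5a3 were more than 2-fold higher (2 of 26 against 2.34%), and Col6a2, Col12a1 and Col15a1 were more than 2-fold lower (3 of 26 against 2.87%). With TWEAK sample 1 as the only TWEAK sample at 24 h, the log2 fold changes were 3.22 for Col5a3, 1.24 for Col2a1 and 0.55 for Col27a1. They were -0.54 for Col4a3, -0.39 for Col4a4, -1.39 for Col6a2 and -0.46 for Col8a1. Fewer genes were called over all tested genes in this fit, and Col12a1, Col15a1 and Col16a1 were no longer called. The 4 main comparisons were TWEAK against vehicle and NIK SMI1 against TWEAK, each at 6 h and 24 h. Called in none of them were Col1a2, Col4a1, Col4a2, Col4a6, Col5a1, Col5a2, Col6a1, Col9a3, Col11a1, Col11a2, Col18a1 and Col20a1.

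NIK SMI1 against TWEAK gave fewer calls than TWEAK against vehicle, both among collagens and over all tested genes. Against TWEAK alone at 6 h, Col4a3, Col4a4 and Col7a1 were higher (3 of 26, against 5.34% of all genes) and Col2a1 and Col4a5 were lower (2 of 26, against 5.70%). At 24 h, Col4a3 and Col4a4 were higher (2 of 26, against 10.2%) and Col2a1, Col5a3, Col17a1 and Col27a1 were lower (4 of 26, against 8.29%). Below the study's 1.5-fold cut-off for inhibition, 0 members were called at 6 h, against 1.10% of all genes, and Col5a3 and Col17a1 at 24 h, against 1.75%. The TWEAK and NIK SMI1 comparisons of a time point share their TWEAK samples, so a TWEAK sample that is high moves both, in opposite directions. With TWEAK sample 2 alone at 24 h, the log2 fold changes were 0.33 for Col4a3, 0.24 for Col4a4, -2.31 for Col5a3 and -0.38 for Col2a1. Fewer genes were called over all tested genes in this fit, and Col2a1, Col4a4 and Col17a1 were no longer called. The counts of called members turned on single samples. At 6 h the count higher was 5 without vehicle sample 1 and 1 without TWEAK sample 1 or NIK SMI1 sample 2, and the count lower was 1 without any one TWEAK or NIK SMI1 sample of 6 h, vehicle sample 1 of 24 h or TWEAK sample 2 of 24 h. At 24 h the count higher was 1 without TWEAK sample 2 or 3 or NIK SMI1 sample 1, and the count lower was 2 without TWEAK sample 2 or 3 or NIK SMI1 sample 2.

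**Figure D2:**
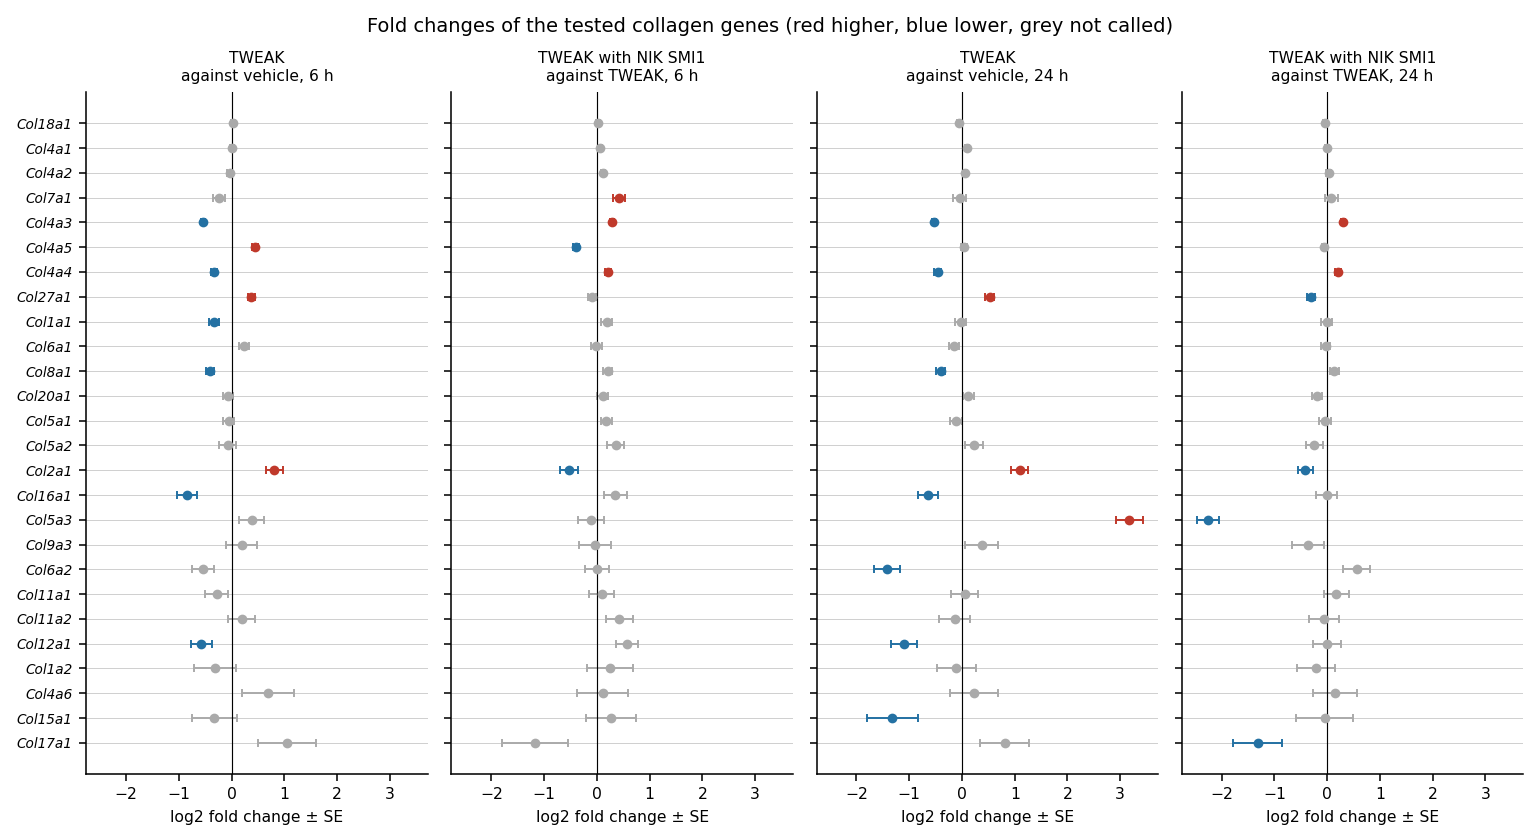
Log2 fold change and standard error of the 26 tested collagen genes in 4 comparisons, ordered by level, with red for higher, blue for lower and grey for genes not called. Col5a3 stands out at 24 h, at 3.17 with TWEAK and -2.25 with NIK SMI1, and Col4a3 and Col4a4 lie below 0 with TWEAK and above 0 with NIK SMI1 at both times.

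Among the fibrillar genes, Col5a3, which encodes a minor chain of collagen V, had the largest fold change of the 26 genes in these 4 comparisons. With vehicle at 24 h its level was 0.327, 0.507 and 0.732 CPM, with TWEAK 4.49, 4.54 and 4.02 CPM, and with NIK SMI1 0.948, 0.957 and 0.813 CPM. The 3 groups did not overlap at 24 h, and the NIK SMI1 samples lay just above the vehicle samples and far below the TWEAK samples. The fitted change with TWEAK was 9-fold (log2 3.17 ± 0.25 SE, edgeR adjusted p = 5.5e-11). NIK SMI1 lowered it by 2.25 ± 0.21 on the log2 scale (edgeR log2 fold change -2.25, adjusted p = 4.94e-09), and it stayed above vehicle by 0.92 ± 0.31 (adjusted p = 0.0397). This last call was lost without vehicle sample 1 or 2 or without any single NIK SMI1 sample of 24 h, with adjusted p-values of 0.0509 to 0.362. Vehicle and NIK SMI1 samples of 24 h were also fully separated in islet reads, and the part of that difference was not tested. With TWEAK sample 1 alone the TWEAK change was 3.22, and with TWEAK sample 2 alone the NIK SMI1 change was -2.31, both called. Among the mesenchyme markers at 24 h, mean Postn was also highest with TWEAK, at 3.63 CPM with vehicle, 5.79 with TWEAK and 4.12 with NIK SMI1, while mean Acta2 was 6.09, 4.30 and 4.98, and their part in the Col5a3 result was not tested.

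At 6 h Col5a3 showed no such change. Its level was 0.616, 0.855 and 1.23 CPM with vehicle, 1.21, 1.25 and 1.16 CPM with TWEAK, and 1.34, 0.759 and 1.22 CPM with NIK SMI1. The groups overlapped, and vehicle sample 3 reached the level of the TWEAK samples. The log2 fold change with TWEAK was 0.38 ± 0.23 (edgeR adjusted p = 0.282), and that of NIK SMI1 was -0.12 ± 0.25 (adjusted p = 0.832). The TWEAK effect differed between the times by 2.79 ± 0.36 on the log2 scale (adjusted p = 4.18e-06) and the NIK SMI1 effect by -2.14 ± 0.33 (adjusted p = 0.000329). Vehicle samples themselves were lower at 24 h than at 6 h, by a log2 fold change of -1.03 ± 0.30 (adjusted p = 0.0112). Without vehicle sample 3 of 6 h or vehicle sample 1 of 24 h, that call was lost (adjusted p = 0.123 to 0.177). The other collagen V chains did not move with it: Col5a1 had log2 fold changes of -0.05 and -0.11 with TWEAK at 6 h and 24 h, and Col5a2 -0.08 and 0.23, none called. The ratio of Col5a3 to Col5a1 RPKM was 0.0578, 0.0789 and 0.109 with vehicle at 24 h and 0.728, 0.737 and 0.804 with TWEAK. With NIK SMI1 it was 0.193, 0.166 and 0.130, so the groups did not overlap. TWEAK against vehicle and NIK SMI1 against TWEAK each gave an exact permutation p = 0.1 (adjusted p = 0.15 over 24 ratio tests). The smallest p that 3 against 3 samples allow is 0.1.

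Col2a1, the chain of collagen II in cartilage, was low in every group and was higher with TWEAK at both times. At 6 h the vehicle samples had 1.46, 1.39 and 1.46 CPM, the TWEAK samples 2.56, 2.33 and 2.64, and the NIK SMI1 samples 1.64, 1.92 and 1.66. At 24 h the vehicle samples had 1.87, 1.62 and 2.20 CPM, the TWEAK samples 4.45, 4.002 and 3.82, and the NIK SMI1 samples 3.70, 2.87 and 2.50. TWEAK and vehicle samples were fully separated at both times, and the NIK SMI1 samples lay between them without overlap. The changes with TWEAK were 1.75-fold (log2 0.81 ± 0.16, edgeR adjusted p = 0.000345) and 2.14-fold (1.10 ± 0.16, adjusted p = 2.82e-06). NIK SMI1 against TWEAK gave log2 fold changes of -0.53 ± 0.17 (adjusted p = 0.0434) and -0.41 ± 0.14 (adjusted p = 0.0422). Both calls were weak. The first was lost without any one of the TWEAK or NIK SMI1 samples of 6 h, vehicle sample 1 of 24 h or TWEAK sample 2 of 24 h, at adjusted p-values of 0.0505 to 0.165. The second was lost without any one TWEAK sample or NIK SMI1 sample 2 or 3 of 24 h, at 0.0589 to 0.215, and with TWEAK sample 2 alone (-0.38, adjusted p = 0.275). Both were also lost in DESeq2 (adjusted p = 0.0577 and 0.0681) and without the filter (0.0619 and 0.0742), and the first with each time fitted alone (0.0572).

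Col27a1, a fibrillar collagen of cartilage and epithelia, was also higher with TWEAK at both times. Its level at 6 h was 16.9, 18.4 and 20.6 CPM with vehicle, 25.4, 25.3 and 21.4 with TWEAK, and 21.3, 22.4 and 24.5 with NIK SMI1. At 24 h it was 17.2, 18.4 and 16.8 CPM with vehicle, 25.4, 26.3 and 23.6 with TWEAK, and 21.6, 20.7 and 18.8 with NIK SMI1. TWEAK and vehicle samples did not overlap at either time, and NIK SMI1 samples overlapped the TWEAK samples at 6 h but not at 24 h. The change with TWEAK was 1.29-fold at 6 h (edgeR adjusted p = 0.000248) and 1.44-fold at 24 h (adjusted p = 3.79e-06). NIK SMI1 lowered it at 24 h by a log2 fold change of -0.30 ± 0.07 (adjusted p = 0.00378), and by -0.36 (adjusted p = 0.0203) with TWEAK sample 2 alone. Of the other fibrillar genes, Col1a1 was lower with TWEAK at 6 h, at 9.45, 10.5 and 8.77 CPM against 11.3, 11.9 and 13.3 with vehicle (log2 -0.34 ± 0.10, adjusted p = 0.0109). That call was lost without vehicle sample 3 or TWEAK sample 3 of 6 h (adjusted p = 0.0632 to 0.0831). At 24 h the Col1a1 change was -0.02 ± 0.10, and the log2 fold changes of Col1a2, Col11a1 and Col11a2 with TWEAK at 24 h were -0.10, 0.05 and -0.14, none called.

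**Figure D3:**
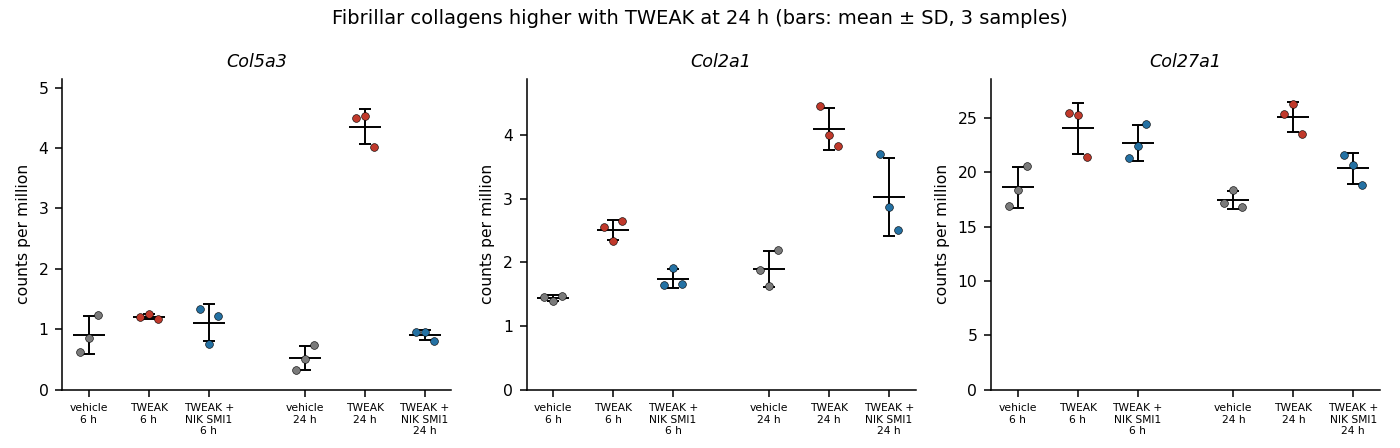
CPM of Col5a3, Col2a1 and Col27a1 in each of the 18 samples, with the mean and SD of 3 samples as bars, by treatment and time. Col5a3 with TWEAK at 24 h lies at 4.02 to 4.54 CPM, above all other groups, while Col2a1 and Col27a1 are already separated from vehicle at 6 h.

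The 6 collagen IV genes fell into groups that moved differently. Col4a1 and Col4a2, the chains of the common basement membrane network, were called in none of the 4 treatment comparisons. With TWEAK at 24 h Col4a1 was at 315, 300.3 and 300.5 CPM against 283, 298 and 279 with vehicle, and Col4a2 at 195, 196 and 190 CPM against 183, 195 and 179. The TWEAK samples of Col4a1 lay just above the vehicle samples, and those of Col4a2 overlapped them. The fitted differences were 0.09 ± 0.04 for Col4a1 (edgeR adjusted p = 0.0502) and 0.06 ± 0.04 for Col4a2 (adjusted p = 0.267) on the log2 scale, and 0.0033 and -0.04 at 6 h. The ratio of Col4a1 to Col4a2 RPKM lay between 1.28 and 1.39 in all 18 samples. At 6 h it was 1.35, 1.31 and 1.31 with vehicle, 1.37, 1.36 and 1.35 with TWEAK, and 1.31, 1.31 and 1.32 with NIK SMI1, and before rounding the TWEAK samples lay just above both other groups (exact permutation p = 0.1, adjusted p = 0.15). At 24 h the ratios overlapped.

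Col4a3 and Col4a4, chains of the mature kidney network, were lower with TWEAK. Col4a3 was at 89.6, 83.1 and 86.5 CPM with vehicle at 6 h, 57.6, 60.9 and 58.1 with TWEAK, and 73.2, 68.8 and 74.9 with NIK SMI1. At 24 h it was at 82.3, 84.8 and 82.0 CPM with vehicle, 57.1, 56.2 and 58.8 with TWEAK, and 69.9, 73.5 and 68.8 with NIK SMI1. The 3 groups did not overlap at either time, with NIK SMI1 in the middle. TWEAK gave log2 fold changes of -0.54 ± 0.04 at 6 h (edgeR adjusted p = 5.86e-11) and -0.53 ± 0.04 at 24 h (adjusted p = 8.21e-11). NIK SMI1 gave 0.29 ± 0.04 (adjusted p = 2.47e-05) and 0.30 ± 0.04 (adjusted p = 6.83e-06) against TWEAK, and Col4a3 stayed below vehicle by -0.25 and -0.23. At 24 h the TWEAK change was -0.54 with TWEAK sample 1 alone and the NIK SMI1 change 0.33 with TWEAK sample 2 alone, both called. Podxl, a podocyte marker that these cells also express, was also lowest with TWEAK at both times, at a mean of 388 CPM with vehicle, 339 with TWEAK and 388 with NIK SMI1 at 6 h, and 335, 245 and 290.0 at 24 h. Nphs1, another podocyte marker, had at most 1 read in a sample, and the part of Podxl-expressing cells was not tested.

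Col4a4 had 51.7, 45.8 and 50.4 CPM with vehicle at 6 h, 38.9, 39.3 and 38.5 with TWEAK, and 45.0, 45.2 and 45.7 with NIK SMI1. At 24 h it had 53.5, 60.3 and 48.2 CPM with vehicle, 41.1, 38.3 and 38.5 with TWEAK, and 47.0, 45.1 and 43.4 with NIK SMI1. At each time, all TWEAK samples lay below all samples of the other groups. TWEAK gave -0.33 ± 0.06 (edgeR adjusted p = 5.95e-05) and -0.46 ± 0.06 (adjusted p = 4.2e-07) on the log2 scale, and NIK SMI1 against TWEAK 0.21 ± 0.06 (adjusted p = 0.0183) and 0.20 ± 0.06 (adjusted p = 0.0152). The NIK SMI1 call at 6 h was lost without TWEAK sample 1 or 3 or NIK SMI1 sample 1 or 2 of that time (adjusted p = 0.0504 to 0.0669). The call at 24 h was lost without TWEAK sample 2 or 3 or NIK SMI1 sample 1 of 24 h (0.0609 to 0.0820), and with TWEAK sample 2 alone (log2 fold change 0.24, adjusted p = 0.0734). The annotated spans of Col4a3 and Col4a4 overlap, and whether their values are fully separate measurements was not tested.

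Col4a5, which joins the chains of Col4a3 and Col4a4 in one network, went the other way. It was at 34.0, 34.0 and 36.5 CPM with vehicle at 6 h, 45.2, 45.7 and 49.7 with TWEAK, and 35.1, 34.2 and 39.0 with NIK SMI1. TWEAK samples lay above both other groups, which overlapped. The log2 fold change was 0.44 ± 0.05 with TWEAK (edgeR adjusted p = 4.17e-07) and -0.39 ± 0.06 with NIK SMI1 against TWEAK (adjusted p = 1.87e-05). At 24 h the 3 groups overlapped, at 47.9, 43.0 and 45.3 CPM with vehicle, 45.1, 46.3 and 48.3 with TWEAK, and 48.0, 45.1 and 42.2 with NIK SMI1, and the changes were 0.03 ± 0.06 and -0.05 ± 0.05. Vehicle samples rose from 6 h to 24 h by 0.32 ± 0.06 on the log2 scale (adjusted p = 7.08e-05). The TWEAK effect differed between times by -0.40 ± 0.08 (adjusted p = 0.000824) and the NIK SMI1 effect by 0.34 ± 0.08 (adjusted p = 0.0120, and 0.0638 with TWEAK sample 2 alone). Col4a6 was near the limit of detection, with 3 to 32 reads per sample.

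Ratios of the chains within a sample were compared between treatments. The ratio of Col4a3 to Col4a1 RPKM at 24 h was 0.252, 0.247 and 0.255 with vehicle, 0.157, 0.162 and 0.169 with TWEAK, and 0.200, 0.205 and 0.197 with NIK SMI1. The ratio of Col4a5 to Col4a3 at 6 h was 0.498, 0.537 and 0.555 with vehicle, 1.03, 0.985 and 1.12 with TWEAK, and 0.631, 0.654 and 0.684 with NIK SMI1. In both cases the 3 groups were separated, with NIK SMI1 in the middle. TWEAK against vehicle and NIK SMI1 against TWEAK each gave an exact permutation p = 0.1 (adjusted p = 0.15). That is the smallest p that 3 against 3 samples allow, so the test could not give a call. NIK SMI1 against vehicle was not tested for these ratios. These ratios need no scaling between libraries. The summed RPKM of the 6 genes was 91.7 ± 2.77 (SD, n = 3) with vehicle, 87.5 ± 2.62 with TWEAK and 92.8 ± 2.32 with NIK SMI1 at 6 h, and 87.1 ± 3.03, 86.1 ± 1.44 and 88.7 ± 2.15 at 24 h. At 6 h every NIK SMI1 sample lay above every TWEAK sample, while vehicle overlapped TWEAK. At 24 h all 3 groups overlapped.

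**Figure D4:**
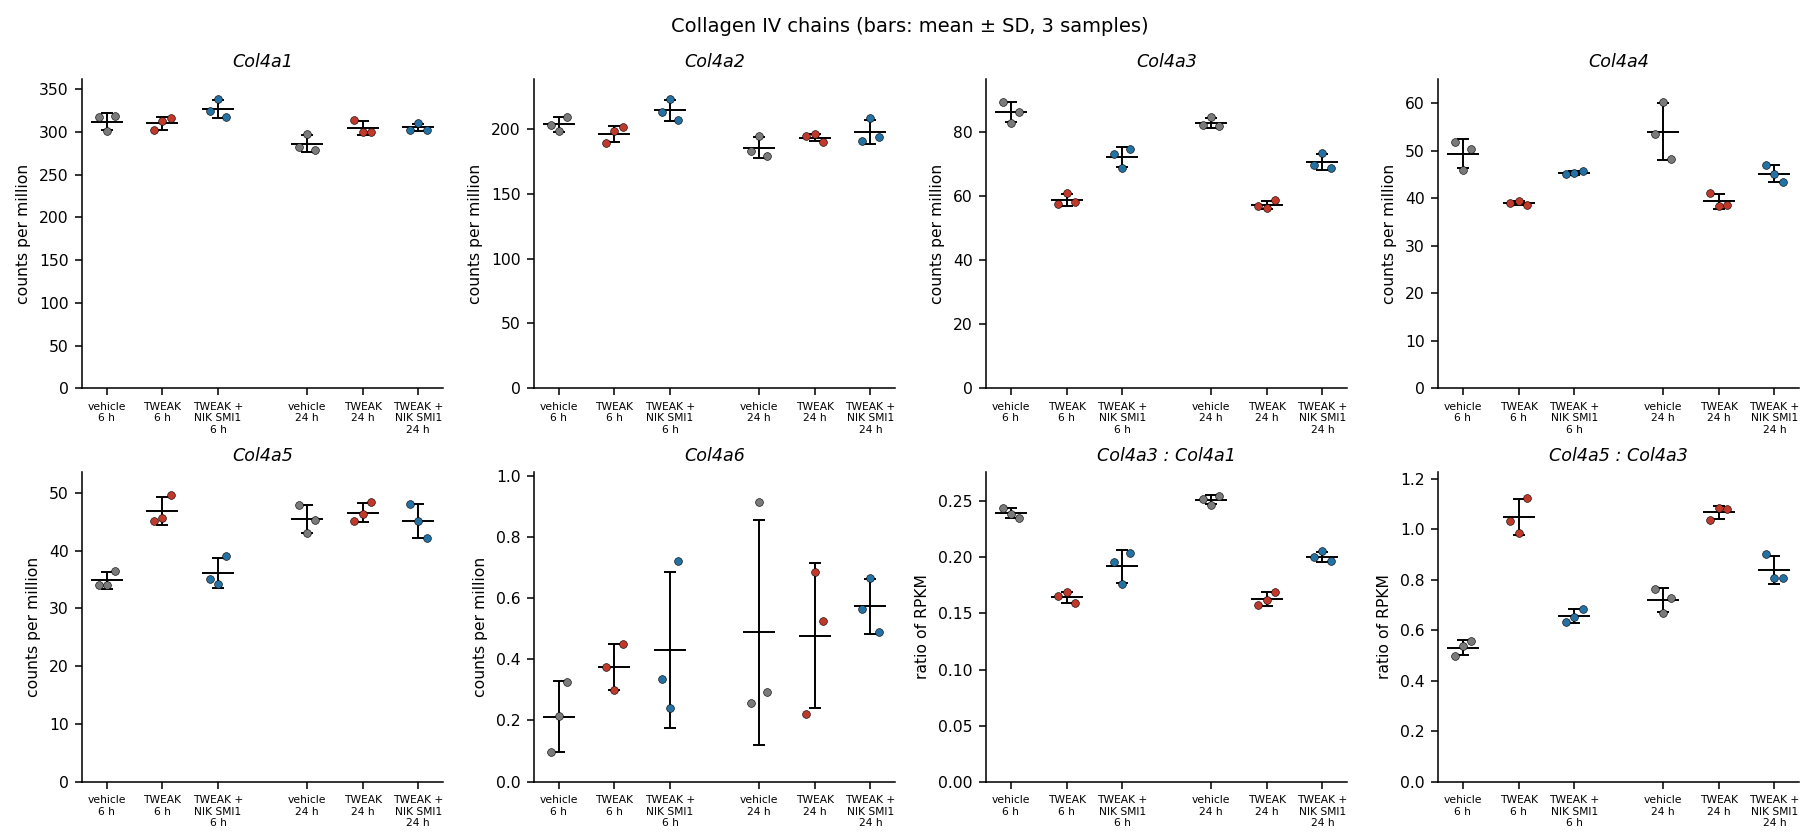
CPM of the 6 collagen IV genes and 2 ratios of RPKM (Col4a3 to Col4a1, Col4a5 to Col4a3) in each of the 18 samples, with mean and SD of 3 samples as bars. Col4a3 and Col4a4 are lowest with TWEAK at both times, Col4a5 is raised at 6 h only, and Col4a1 and Col4a2 were not called for treatment.

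Several collagens of other classes were lower with TWEAK. Col8a1, a short-chain collagen made by epithelia and vessels, was at 14.3, 13.3 and 13.2 CPM with vehicle at 6 h and 9.59, 10.6 and 9.96 with TWEAK. At 24 h it was at 9.85, 9.18 and 11.6 CPM with vehicle and 7.36, 7.64 and 7.93 with TWEAK. The groups did not overlap at either time, with log2 fold changes of -0.41 ± 0.08 (edgeR adjusted p = 0.000198) and -0.41 ± 0.09 (adjusted p = 0.000657). NIK SMI1 did not give a call against TWEAK, at 0.20 at 6 h and 0.13 at 24 h.

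Col6a2, a chain of collagen VI, was at 1.82, 1.37 and 2.00 CPM with vehicle at 24 h, 0.661, 0.599 and 0.693 with TWEAK, and 1.08, 1.10 and 0.650 with NIK SMI1. TWEAK samples were all below vehicle, and NIK SMI1 sample 3 lay among them. The log2 fold change was -1.43 ± 0.24 (edgeR adjusted p = 2.82e-05). NIK SMI1 against TWEAK gave 0.56 ± 0.25 (adjusted p = 0.141), and at 6 h TWEAK gave -0.54 ± 0.21 (adjusted p = 0.0673). Its neighbour and partner chain Col6a1 was not called for TWEAK, at -0.15 ± 0.09 at 24 h, and had 5.61, 6.44 and 7.47 CPM with vehicle at 6 h against 11.5, 10.7 and 12.3 at 24 h. Col6a3, the third chain, had 38 reads in all samples together.

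The fibril-associated genes Col12a1 and Col16a1 were lower at both times. Col12a1 was at 1.85, 2.03 and 2.25 CPM with vehicle at 24 h, 0.969, 1.16 and 0.669 with TWEAK, and 0.993, 0.870 and 0.943 with NIK SMI1. TWEAK and NIK SMI1 samples were alike in range and below all vehicle samples. The log2 fold change with TWEAK was -1.11 ± 0.25 (edgeR adjusted p = 0.000662), and that with TWEAK and NIK SMI1 against vehicle -1.10 ± 0.25 (adjusted p = 0.00155), while NIK SMI1 against TWEAK gave 0.0049 ± 0.26. At 6 h it was at 3.50, 2.35 and 1.98 CPM with vehicle and 1.47, 1.65 and 1.98 with TWEAK (log2 -0.58 ± 0.20, adjusted p = 0.0392), with vehicle sample 3 and TWEAK sample 3 almost level. That call was lost without vehicle sample 1 or TWEAK sample 1 or 2 of 6 h (adjusted p = 0.115 to 0.308), and with each time fitted alone (0.0716). The 24 h call was lost with TWEAK sample 1 alone (-1.05, adjusted p = 0.0518).

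Col16a1 was at 1.91, 1.76 and 1.963 CPM with vehicle at 6 h against 0.948, 1.09 and 1.056 with TWEAK. At 24 h it was at 2.27, 2.08 and 1.90 CPM with vehicle and 1.59, 1.41 and 1.12 with TWEAK. The groups did not overlap, with log2 fold changes of -0.84 ± 0.19 (edgeR adjusted p = 0.00152) and -0.64 ± 0.20 (adjusted p = 0.0107). The second call was lost without vehicle sample 1 or TWEAK sample 3 of 24 h (adjusted p = 0.0707 to 0.0776), and with TWEAK sample 1 alone (-0.41, adjusted p = 0.372). NIK SMI1 against TWEAK gave 0.35 ± 0.22 and -0.0094 ± 0.20, neither called.

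Of the multiplexins, Col18a1 was the highest collagen and Col15a1 among the lowest. Col18a1, whose C-terminal fragment is endostatin, was at 974, 1016 and 995 CPM with vehicle at 24 h, 974, 952 and 942 with TWEAK, and 944, 936 and 914 with NIK SMI1. TWEAK sample 1 met the lowest vehicle sample, and the log2 fold change was -0.06 ± 0.03 (edgeR adjusted p = 0.143). Col15a1 had 7 to 18 reads with vehicle and 4 to 9 with TWEAK at 24 h, that is 0.421, 0.457 and 0.342 CPM against 0.176, 0.193 and 0.120, and 0.0451, 0.261 and 0.195 CPM with NIK SMI1. TWEAK and vehicle samples did not overlap. Its log2 fold change of -1.32 ± 0.48 (adjusted p = 0.0295) rests on these few reads. The call was lost without vehicle sample 1 or 2 or TWEAK sample 3 of 24 h (0.0668 to 0.112), in DESeq2 (0.0575), without the filter (0.0654), and with TWEAK sample 1 alone (0.323).

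Col7a1, the anchoring fibril gene, was at 160.4, 228 and 270.3 CPM with vehicle at 6 h, 184, 214 and 154.5 with TWEAK, and 215, 251.5 and 280.4 with NIK SMI1. The NIK SMI1 samples all lay above the TWEAK samples, but within or just above the range of vehicle. The log2 fold change of NIK SMI1 against TWEAK was 0.42 ± 0.12 (edgeR adjusted p = 0.0208), lost without TWEAK sample 1 or 3 or NIK SMI1 sample 2 or 3 of 6 h (0.0743 to 0.129), in DESeq2 (0.0711) and with each time fitted alone (0.0687). TWEAK itself gave -0.24 ± 0.12 at 6 h and -0.05 ± 0.12 at 24 h. Col17a1, the transmembrane collagen of hemidesmosomes, had 6 to 26 reads with TWEAK and 3 to 11 with NIK SMI1 at 24 h, that is 0.264, 0.557 and 0.550 CPM against 0.158, 0.0870 and 0.358, and the groups overlapped. Its log2 fold change of -1.31 ± 0.47 (adjusted p = 0.0497) was just below the threshold. The call was lost in 14 of 18 fits that leave out 1 sample, at 0.0503 to 0.210, and was kept only without vehicle sample 1 or NIK SMI1 sample 3 of 6 h or TWEAK sample 1 or NIK SMI1 sample 3 of 24 h. It was also lost with TWEAK sample 2 alone (0.118), in DESeq2 (0.128), without the filter (0.0817), with filterByExpr (0.0524) and with library totals alone (0.0518).

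Among the fibril-associated genes not called in the 4 comparisons, Col20a1 had log2 fold changes of -0.06 and 0.12 with TWEAK at 6 h and 24 h, and Col9a3, a chain of collagen IX, 0.19 and 0.37.

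**Figure D5:**
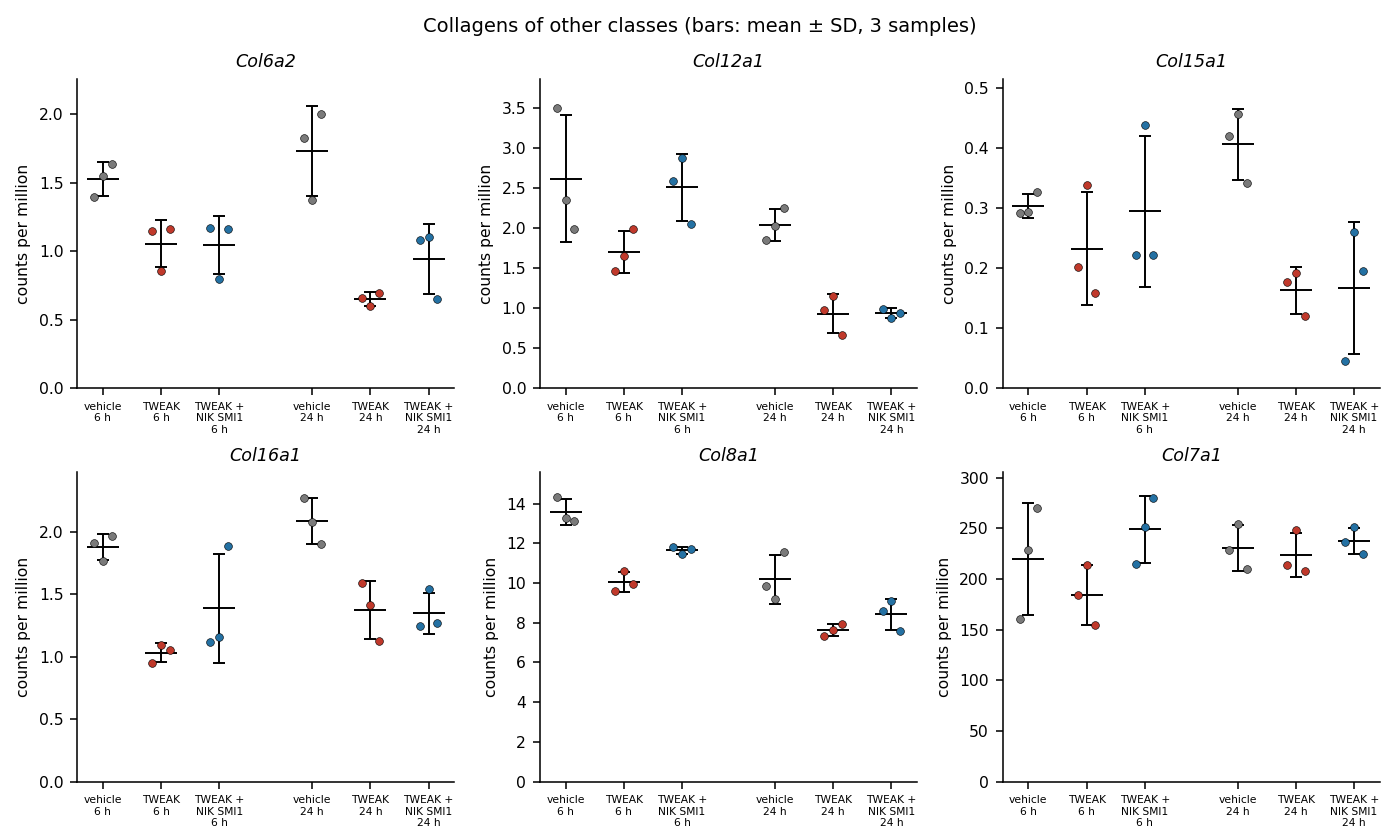
CPM of Col6a2, Col12a1, Col15a1, Col16a1, Col8a1 and Col7a1 in each of the 18 samples, with mean and SD of 3 samples as bars. Col8a1, Col12a1 and Col16a1 with TWEAK and with NIK SMI1 overlap at 24 h and lie below vehicle, while Col7a1 overlaps between treatments except for NIK SMI1 against TWEAK at 6 h.

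How near the inhibited cells came to vehicle was asked by comparing TWEAK with NIK SMI1 against vehicle. At 6 h, 1 of 26 collagens was higher (Col27a1, log2 0.27 ± 0.08), against 7.24% of all genes, and 1 was lower (Col4a3, -0.25 ± 0.04), against 6.70%. Without vehicle sample 1 or NIK SMI1 sample 3 the count higher was 0, without vehicle sample 3 it was 3, and without NIK SMI1 sample 3 the count lower was 2. At 24 h, Col2a1 (0.69 ± 0.16) and Col5a3 were higher (2 of 26, against 8.07%), and 1 without vehicle sample 1, NIK SMI1 sample 1 or NIK SMI1 sample 2. There were 8 of 26 lower, which is 30.8% of the members against 9.83% of all genes: Col4a3, Col4a4, Col6a2, Col8a1, Col12a1, Col15a1, Col16a1 and Col18a1. Their log2 fold changes ran from -0.10 for Col18a1 to -1.37 for Col15a1, whose call was lost in 14 of 18 fits without 1 sample and kept only without TWEAK sample 2 or 3 or NIK SMI1 sample 2 of 6 h, or NIK SMI1 sample 2 of 24 h. The count of genes lower fell to 3 without NIK SMI1 sample 3 and to 5 without NIK SMI1 sample 1, vehicle sample 1 or vehicle sample 3 of 24 h. Islet reads separated these groups at 24 h, at 14.3 to 19.5 CPM with vehicle and 0.0451 to 0.0870 CPM with NIK SMI1. No sample of either group was near the other, so the part of this library difference in these calls was not tested.

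Vehicle samples were compared between the times, at 24 h against 6 h. Col4a5, Col6a1 and Col18a1 were higher (3 of 26, which is 11.5% against 15.5% of all genes). Col4a1, Col4a2, Col4a3, Col5a3 and Col8a1 were lower (5 of 26, 19.2% against 14.4%), falling to 3 without vehicle sample 1 of 24 h. These shares lay near those of all genes. TMM factors were below 1 in all samples of 6 h and above 1 in all samples of 24 h. With library totals alone the shares over all genes were 23.9% higher and 8.12% lower, the median of all genes was 0.07, and Col4a3 was no longer called (-0.06, adjusted p = 0.315). The Col18a1 call was lost with DESeq2 size factors (0.0620) and without the filter (0.0572), and without vehicle sample 1 or 2 of 6 h or 2 or 3 of 24 h (0.0534 to 0.142). The largest rise among those called was that of Col6a1, at 0.74 ± 0.10 on the log2 scale (edgeR adjusted p = 1.35e-06). Col8a1 changed by -0.48 ± 0.08 (adjusted p = 5.81e-05), and Col4a1 and Col4a2 by -0.19 ± 0.04 and -0.20 ± 0.04. A test of the TWEAK effect at 24 h against that at 6 h called 1 member higher (Col5a3, against 3.24% of all genes) and 1 lower (Col4a5, against 5.67%). The first count was 2 without TWEAK sample 3 of 24 h, and the other was 2 without vehicle sample 3 of 6 h. For the NIK SMI1 effect, 1 was higher (Col4a5, against 3.11%) and 1 lower (Col5a3, against 1.62%).

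Genes that make, process, bind and cut collagen were read from lists chosen by function, and their counts stand beside 11.7% higher and 12.0% lower of all tested genes with TWEAK at 6 h, and 18.3% and 20.7% at 24 h. Of 14 tested genes for hydroxylation and glycosylation of the chains, 2 were higher and 4 lower with TWEAK at 6 h, and 4 were higher and 3 lower at 24 h (median log2 fold change -0.04, and -0.0055 over all genes). P4ha3, a catalytic subunit of prolyl 4-hydroxylase, went from 3.35 ± 0.39 CPM (SD, n = 3) with vehicle to 19.4 ± 1.09 with TWEAK and 7.29 ± 0.58 with NIK SMI1 at 24 h. Its sister subunit P4ha1 went from 132 ± 2.43 to 76.8 ± 2.28 and 107 ± 2.41 CPM. The subunits moved in opposite directions, with log2 fold changes of 2.56 ± 0.11 (edgeR adjusted p = 5.44e-17) and -0.79 ± 0.03 (adjusted p = 2.43e-16). Colgalt1, which adds galactose to hydroxylysine, was higher by 0.50 ± 0.03.

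Of 11 genes for chaperoning and export, 3 were higher and 3 lower at 24 h (median 0.07), against 18.3% and 20.7% of all genes. Sparc, a collagen-binding matrix protein, was lower with TWEAK at -0.53 ± 0.03 at 6 h and -0.23 ± 0.03 at 24 h, and Creb3l1, a transcription factor known for driving collagen I in bone, was higher at 1.02 ± 0.13 and 0.84 ± 0.13. Of 11 tested genes for propeptide processing and crosslinking, 5 were higher and 2 lower at 24 h (median 0.15), against the same 18.3% and 20.7%. Loxl4, a lysyl oxidase, was higher at 0.81 ± 0.09, Pxdn, the peroxidase that crosslinks collagen IV, at 0.25 ± 0.04, and Pcolce, an enhancer of procollagen cleavage, lower at -0.87 ± 0.07 (edgeR adjusted p = 1.58e-11). NIK SMI1 at 24 h lowered Loxl4 and Pxdn and raised Pcolce against TWEAK, at -0.49, -0.18 and 0.27.

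Of 7 tested receptors, 2 were higher and 2 lower at 24 h (median -0.0061), against 18.3% and 20.7% of all genes. Itga2, the integrin chain that binds collagen on epithelia, went from 220 ± 3.42 CPM with vehicle to 371 ± 13.8 with TWEAK and 276 ± 3.62 with NIK SMI1. Its log2 fold change was 0.75 ± 0.04 (edgeR adjusted p = 5.24e-14), and the partner chain Itgb1 was lower at -0.18 ± 0.03. Of 4 tested collagenolytic proteases, 2 were higher and 0 lower at 24 h (median 0.03), against 18.3% and 20.7% of all genes. Mmp9, which degrades collagen IV and denatured collagen, had the largest rise of the 5 lists, from 1.88 ± 0.04 CPM with vehicle to 61.1 ± 0.14 with TWEAK and 11 ± 0.32 with NIK SMI1 at 24 h. Its log2 fold change was 5.02 ± 0.10 with TWEAK (adjusted p = 1.2e-23) and -2.48 ± 0.07 with NIK SMI1 (adjusted p = 2.96e-19). At 6 h it was 2.14 ± 0.09. Mmp14, which cuts fibrillar collagen at the cell surface, was higher at 0.13 ± 0.03 at 24 h.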

How the data were processed

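RNA was sequenced from 18 samples of mouse RPTEC in 6 groups of 3. The authors used the TruSeq RNA v2 kit, which does not mark strand, and GSNAP, run by HTSeqGenie, against mouse NCBI build 37. The deposited counts are whole numbers of uniquely aligned exonic reads per gene and were not scaled. RPKM values, which the authors deposited beside them, divide each count by the exonic length and the reads of the sample, and served here only to compare levels between genes and for ratios of chains. The submitters' notes also name DESeq2, without a version. The sequencer, read length and RNA input differ between the labels and the study's methods and are not given here.

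Entrez identifiers were matched to symbols through RefSeq tables of GRCm38.p6 (31049 of 36528 matched). No coordinate was converted between builds, and the promoter coordinates are those of GRCm38.p6. CPM were counts divided by the counted reads of the sample. Genes that exceeded 10 reads in 4 samples or more entered 1 model with a mean for each of 6 groups, in edgeR 4.0.16 under R 4.3.3 (TMM factors 0.964 to 1.03, glmQLFit, glmQLFTest, common biological coefficient of variation 0.0404), with Benjamini-Hochberg adjustment over 15521 genes and calls at 0.05. Standard errors are the log2 fold change over the square root of F. Replicate pairs differed by more than sampling noise (chi-square per gene 2.17 to 9.76), and each was counted as a sample. The highest values, 8.89 and 9.76, were those of vehicle sample 1 of 6 h against its partners. Such spread does not show whether the samples of a group are independent, since technical replicates can also exceed sampling noise. The scripts were tested on simulated data. Ratios of chains were compared by two-sided exact permutation tests.

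Genes chosen for single-sample values were the 12 called members with the largest changes for TWEAK or NIK SMI1. Col5a3 and the 8 members of highest RPKM were added. Their values were not given for every group. Of each function list at most 4 called genes, those of smallest p for TWEAK at 24 h, were named. Col1a1, Col6a1 and Col8a1 were described after their values were seen. Members and lists were chosen with earlier results of these data known. Alternatives were DESeq2 1.42.0, its size factors in edgeR, library totals alone, no filter, filterByExpr, each time point alone and leaving out each sample. TWEAK sample 1 alone and TWEAK sample 2 alone at 24 h were added after seeing the data.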

Additional observations from a re-analysis of the deposited data

Results flagged for a closer look

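The members Col5a3 and Col4a5 had effects that differed between the time points in a test of the difference itself, the interaction contrast of edgeR's quasi-likelihood fit. For Col5a3 the TWEAK effect was larger at 24 h than at 6 h by 2.79 on the log2 scale, and the NIK SMI1 effect differed by -2.14. For Col4a5 the TWEAK effect at 24 h minus that at 6 h was -0.405, and the difference in the NIK SMI1 effect was 0.337. For Col4a5 the vehicle samples themselves rose between the times, from 34.0 to 36.5 CPM at 6 h up to 43.0 to 47.9 CPM at 24 h, while the TWEAK samples stayed at 45.1 to 49.7 CPM at both times. For Col5a3 the vehicle samples fell from 0.616 to 1.23 CPM down to 0.327 to 0.732 CPM, and the TWEAK samples rose from 1.16 to 1.25 CPM up to 4.02 to 4.54 CPM.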

How the results depend on the processing

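No paired analysis was possible because the labels carry no replicate numbers. Over the alternatives, 46 counts of called members moved by over 1.5 times from the reported count and the others did not. Of the single-gene values, 1265 kept their direction and their side of the threshold, 121 lost the call and 1 turned: Col5a3 for NIK SMI1 at 6 h, not called, was 0.0875 without NIK SMI1 sample 2 and -0.341 without NIK SMI1 sample 1, the range over samples left out. Under DESeq2, NIK SMI1 lowered 1 member at 6 h and 2 at 24 h, and its effect was lower at 24 h than at 6 h for 0 members, because DESeq2 gave Col5a3 no adjusted p there (log2 difference -2.14). Without the filter, NIK SMI1 lowered 1 and 2, TWEAK with NIK SMI1 against vehicle at 6 h raised 2, the TWEAK effect was higher at 24 h for 2 and the NIK SMI1 effect lower for 2. With each time point fitted alone, NIK SMI1 lowered 1 at 6 h. With TWEAK sample 2 or TWEAK sample 1 alone at 24 h, a lone sample was assumed to vary like the other groups. Some counts of members moved in these fits, and fewer genes were called over all tested genes. The cause was not tested.

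Leaving out each sample in turn gave these counts. For TWEAK, 3 to 4 were higher and 5 to 6 lower at 6 h, and 3 to 4 and 5 to 7 at 24 h. For NIK SMI1 against TWEAK, 1 to 5 were higher and 1 to 2 lower at 6 h, and 1 to 2 and 2 to 4 at 24 h. With NIK SMI1 against vehicle, 0 to 3 and 1 to 2 at 6 h, and 1 to 3 and 3 to 8 at 24 h. In vehicle over time, 2 to 3 were higher and 3 to 5 lower. The TWEAK effect differed for 1 to 2 in each direction, and the NIK SMI1 effect for 1 in each. Depth limits the members under about 1 CPM, where 3 reads are 0.0577 to 0.166 CPM.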
